A study of Homo sapiens with 6 samples.

Results

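The S100 genes encode a family of small EF-hand calcium-binding proteins, and the annexin genes a family of calcium-dependent phospholipid-binding proteins. Their members were taken from the deposited expression table by symbol alone, as every gene whose symbol starts with S100 or is ANXA followed by a number, with or without L1. That gave 32 of 17758 genes, of which 19 carry an S100 symbol and 13 an annexin symbol. S100PBP meets the rule by name only, since it encodes a nuclear protein that binds S100P and is not itself an S100 protein, which leaves 18 S100 family genes. RNA was measured in T47D, an oestrogen receptor-positive line from a human breast ductal carcinoma. The 6 libraries were 3 of cells with a lentiviral non-targeting short hairpin RNA (shNC) and 3 of cells with lentiviral short hairpin RNA against CUEDC1 (shCUEDC1), all grown in RPMI medium with fetal bovine serum. Both groups carry a stably integrated lentiviral construct. The design text calls the 3 libraries of a group biological replicates. How many hairpins or infections lie behind a group is not given, so the p-values measure only the spread between these libraries.

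Most S100 proteins are small dimers that open a hydrophobic face when calcium fills their EF hands and then bind target proteins. Annexins fold into repeats that bind negatively charged phospholipids when calcium is present, and they organise membranes during secretion, endocytosis and repair. The families meet in complexes, the best known being S100A10 with ANXA2 and S100A11 with ANXA1. Several members are also secreted: S100A8 and S100A9 form calprotectin, an antimicrobial protein of myeloid cells and of stressed epithelium, and S100P and S100A7 are made by many breast carcinomas.

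Totals were between 18924327 and 19731609 estimated reads a library. CUEDC1, the target of the hairpin, was at 93.2 to 109.5 CPM (counts scaled to library size, with TMM factors) in shNC and at 31.4 to 33.8 CPM in shCUEDC1, so its log2 change was -1.68 (SE 0.0755, adjusted p = 9.27e-06 by edgeR, exact two-sided permutation p = 0.1, the smallest that 3 against 3 libraries allow). The library shNC 3 stood apart from shNC 1 and 2 on the second principal component, with 26.0% of the variance. Calls that differ without it are given beside the results. Luminal markers were abundant (ESR1, GATA3, KRT8 and 7 others summed to 5850 to 7163 FPKM in shNC and 7065 to 7188 FPKM in shCUEDC1). FPKM are fragments scaled to transcript length and library size. The 8 leukocyte markers summed to 3.76 to 4.37 FPKM in shNC and 3.81 to 4.00 FPKM in shCUEDC1. PTPRC, which defines leukocytes, ranged from 0.472 to 0.961 CPM over shNC and from 0.409 to 0.725 CPM in shCUEDC1. Markers of keratinocytes (5 in the table) summed to 129 to 165 FPKM in shNC and 179 to 186 FPKM in shCUEDC1, nearly all of it KRT10 (mean 146 and 178 FPKM). Of the keratinocyte markers tested, KRT10 differed by 0.30 on the log2 scale (edgeR adjusted p = 0.0513), IVL by -0.10 (0.759), and TGM1 fell by 0.82 (0.0405). Those of fibroblasts (6 in the table) summed to 5.91 to 7.07 and 9.64 to 10.8 FPKM, most of it COL1A1 (mean 4.77 and 7.19 FPKM). Of the fibroblast markers tested, COL1A1 rose by 0.61 (edgeR adjusted p = 0.00843) and LUM differed by 1.29 (0.0744). COL1A2, COL3A1 and DCN differed by 0.25, -0.02 and 0.12 (0.680, 0.987 and 0.868). No listed marker with a row in the table was at 0 in every library. Listed markers without a row, such as LOR and TYR, could not be counted. The part of these differences in the results below was not tested, and in bulk RNA fewer cells of a type and less RNA per cell cannot be told apart.

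S100 transcripts were among the most abundant of the table. S100A8 had the highest level of the families, with 1548, 1563 and 1244 FPKM in shNC 1, 2 and 3 and 1413, 1557 and 1672 FPKM in shCUEDC1 1, 2 and 3, which placed its mean at rank 28 of all 17758 genes. S100A9 followed at rank 34, S100A11 at rank 49, S100A6 at rank 62 and S100P at rank 73. Those 5 genes made up 86.0% of the FPKM of the family on average, and the family as a whole made up between 1.16% (shNC 3) and 1.46% (shCUEDC1 3) of all FPKM. Below them came S100A10, with a mean of 537 FPKM, and S100A16 with 150 FPKM. S100A7, S100A13 and S100A4 lay between 63.4 and 70.0 FPKM, S100A1 at 15.7 and S100A14 at 5.32. S100A7A (2.55), S100A12 (1.20) and S100A2 (0.662) were low. S100A3, S100Z and S100A5 had at most 5 reads in any library.

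Among the annexins, ANXA2 made up 52.9% of annexin FPKM on average, with 692, 679 and 554 FPKM in shNC 1, 2 and 3 and 611, 600 and 640 FPKM in shCUEDC1 1, 2 and 3. ANXA7, ANXA5 and ANXA6 followed at 144, 134 and 118 FPKM. ANXA9 was at 55.3 FPKM, ANXA11 at 38.4, ANXA1 at 28.1, ANXA4 at 27.1 and ANXA3 at 11.5. ANXA8 and ANXA8L1 lay at 0.715 and 0.532 FPKM. ANXA10 and ANXA13 had no more than 1 read in any library, so neither was detectable at this depth, where 3 reads correspond to about 0.152 to 0.159 CPM.

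**Figure D1:**
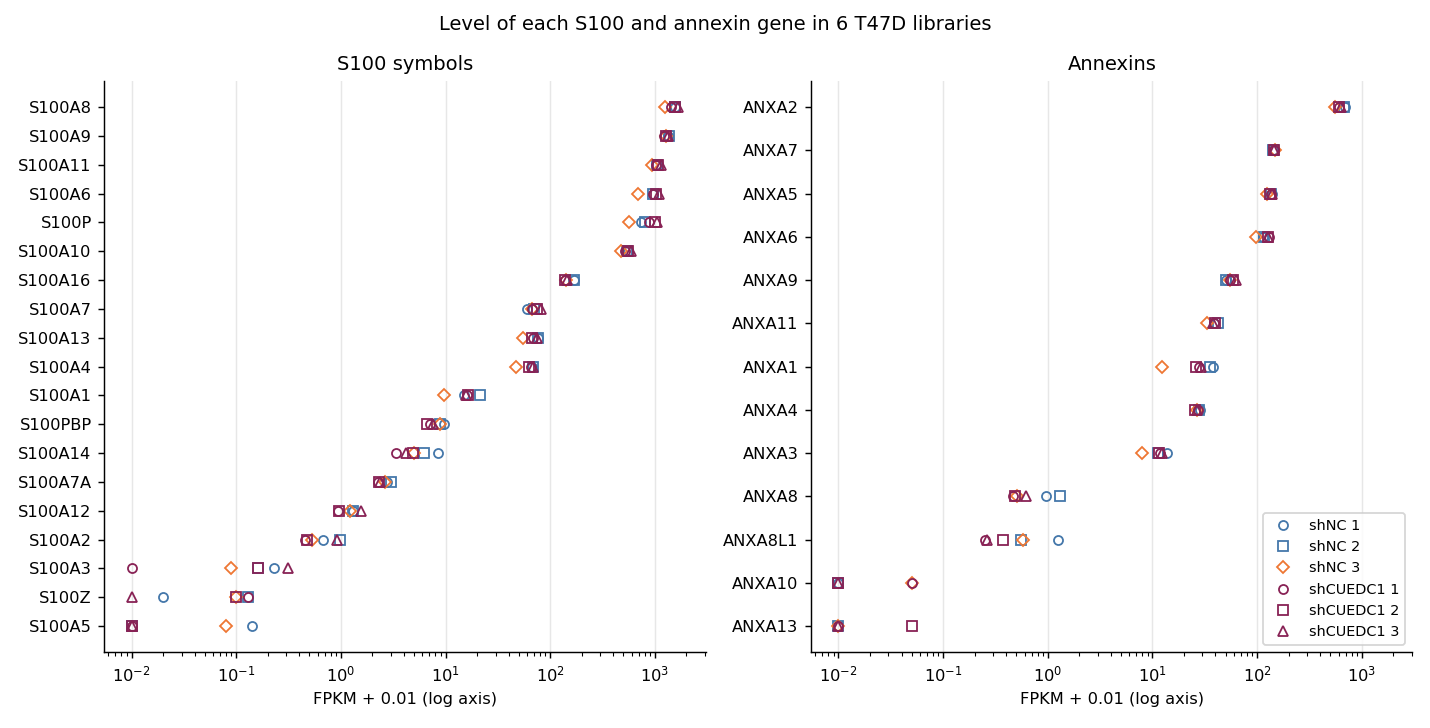
FPKM plus 0.01 on a log axis (horizontal) for each of the 32 genes, S100 symbols on the left and annexins on the right, ordered by mean level, with 1 marker per library. Blue is shNC 1 and 2, orange shNC 3 and purple shCUEDC1. The spread between libraries is wide at ANXA1, with 12.4 FPKM in shNC 3 against 37.7 and 35.8 in shNC 1 and 2. It is also wide at S100A1 (9.74 to 21.5 FPKM), at S100A14 (3.35 to 8.39 FPKM) and for genes with few reads.

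Of the S100 genes, 16 lie in 1 cluster on the long arm of chromosome 1, over 1.65 Mb from S100A10 (151982915 to 151994390) to S100A1 (153627926 to 153632039, GRCh38, GENCODE v29). Neighbours there differed by orders of magnitude. S100A12, with 1.20 FPKM, lies between S100A9 and S100A8, with 1301 and 1500 FPKM. S100A5, with 0.0333 FPKM, lies between S100A6 (943 FPKM) and S100A4 (63.4 FPKM), and S100A3, within the span of S100A4, was at 0.150 FPKM. S100P is alone on chromosome 4 (6693069 to 6697170) and S100Z on chromosome 5.

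**Figure D2:**
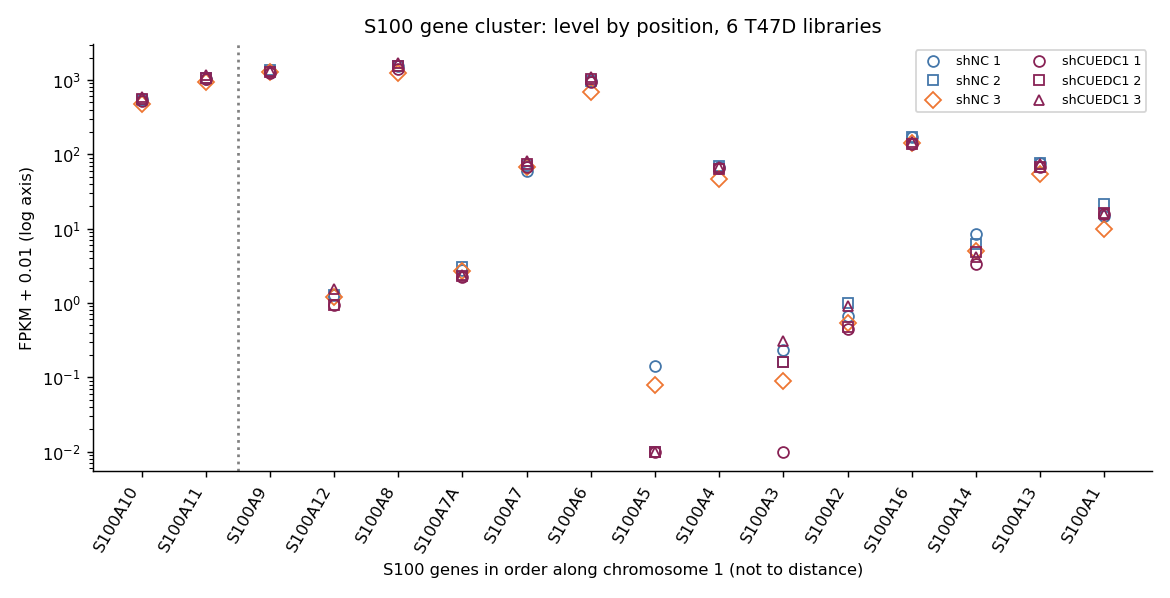
FPKM plus 0.01 on a log axis (vertical) for the 16 clustered S100 genes in their order along chromosome 1 (horizontal, not to distance), with 1 marker per library. The dotted line marks the gap that holds the cornified envelope genes. S100A8 and S100A9 (1500 and 1301 FPKM) stand on either side of S100A12 (1.20 FPKM).

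After the filter on low counts, 27 of the 32 genes were tested: 15 S100 family genes, S100PBP and 11 annexins. S100A3, S100A5, S100Z, ANXA10 and ANXA13 did not pass it. With all 6 libraries, 3 of the 27 were called at an adjusted p below 0.05, against 9.96% of all 13824 genes tested (5.19% higher and 4.77% lower in shCUEDC1). They were S100PBP and ANXA8L1, which fell, and ANXA6, which rose. None of the 15 S100 family genes was called by edgeR, 4 had an unadjusted p below 0.05 (25.2% of all genes did), and DESeq2 called S100P. DESeq2 called 3 of the 27 genes in all, S100P and ANXA6 higher and S100PBP lower, against 5.77% of all genes higher and 4.87% lower. Separate ranges in shNC and shCUEDC1 were seen for 8 of the 27 genes, 4 higher and 4 lower in shCUEDC1, against 31.3% of all genes tested. The median log2 difference was 0.04 over the 27 and -0.004 over all genes. Both counts lie near the background.

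**Figure D3:**
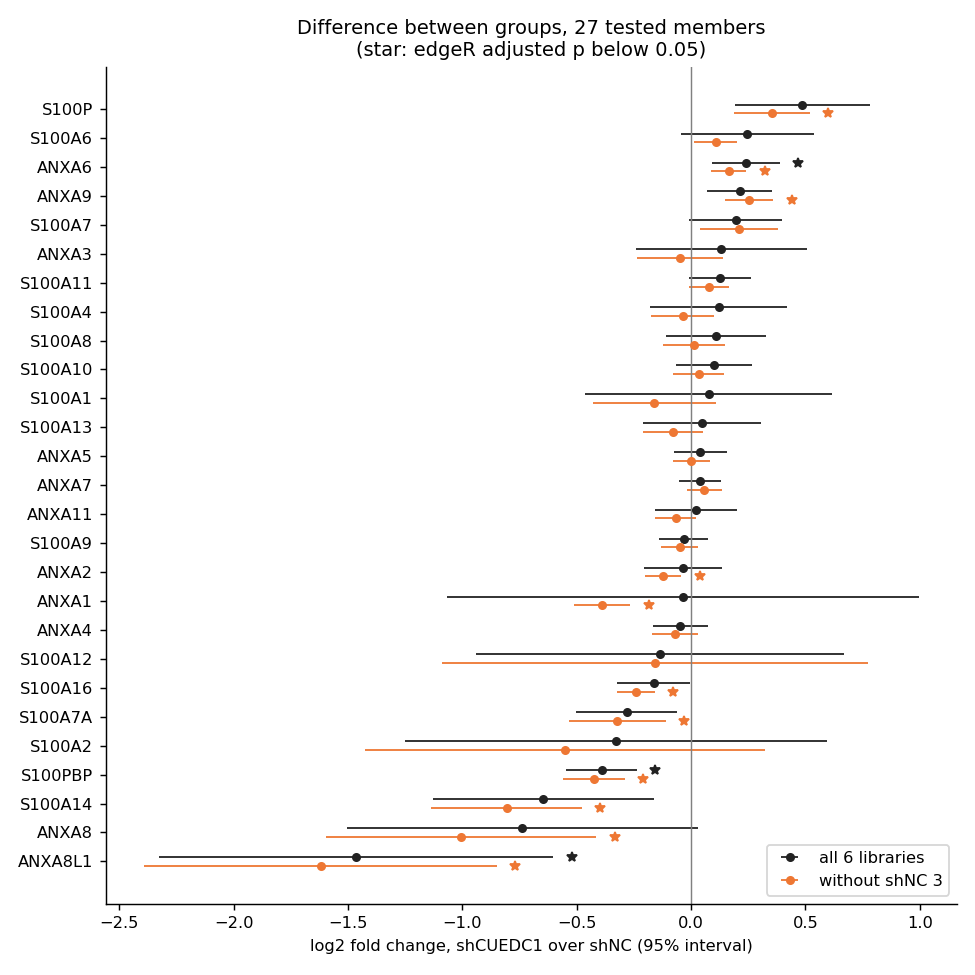
Log2 fold change of shCUEDC1 over shNC with its 95% interval (horizontal) for the 27 tested genes, with all 6 libraries (black) and without shNC 3 (orange); stars mark an edgeR adjusted p below 0.05. The order runs from S100P (0.49) to ANXA8L1 (-1.46), and the intervals narrow without shNC 3 for all but S100A12, most of all for ANXA1.

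S100P, a secreted and cytoplasmic S100 protein that binds ezrin and the receptor RAGE, differed most among the abundant genes. It was at 312, 337 and 236 CPM in shNC 1, 2 and 3 and at 376, 423 and 443 CPM in shCUEDC1 1, 2 and 3. All 3 shCUEDC1 libraries lay above all shNC libraries, with shNC 3 the lowest. The log2 difference was 0.49 (SE 0.127, 95% interval 0.19 to 0.78), and the edgeR adjusted p was 0.0527, just outside the threshold. It was 2.22e-04 by DESeq2 and 0.00783 without shNC 3, where the log2 change was 0.35. Over all alternatives the difference ranged from 0.35 to 0.59 and the adjusted p from 2.22e-04 to 0.146, and 4 of 12 alternatives called it. S100PBP, on the short arm of chromosome 1 (32816767 to 32858879), moved the other way. It was at 39.1, 36.0 and 34.7 CPM in shNC and at 28.0, 27.4 and 28.3 CPM in shCUEDC1. No shCUEDC1 library reached any shNC library, and shNC 3 lay near shNC 2. S100PBP fell by 0.39 on the log2 scale (SE 0.0687, edgeR adjusted p = 0.00709), and 11 of 12 alternatives called it, the exception being the fit without shCUEDC1 2 (adjusted p = 0.0538). It shares 396 exon bases with YARS on the opposite strand, so reads of that stretch cannot be told apart without strand.

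Calprotectin and its relatives showed no called difference. S100A8 was at 556, 561 and 445 CPM in shNC and 513, 564 and 609 CPM in shCUEDC1, a log2 difference of 0.11 (95% interval -0.11 to 0.33, edgeR adjusted p = 0.533). S100A9 was at 693, 706 and 670 CPM in shNC and 644, 671 and 706 CPM in shCUEDC1 (log2 difference -0.03, 95% interval -0.14 to 0.08, edgeR adjusted p = 0.731). The groups overlapped for both. The ratio of S100A8 to S100A9 FPKM was 1.17, 1.15 and 0.966 in shNC 1, 2 and 3 and 1.15, 1.22 and 1.25 in shCUEDC1, with shNC 3 the lowest. In CPM, which do not adjust for length, S100A9 was the higher of the pair in every library. S100A12, the third member of this group, had 8 to 13 reads a library.

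S100A7, psoriasin, an antimicrobial protein of keratinocytes that is also found in breast carcinoma, averaged 24.8 ± 1.87 CPM over shNC against 28.4 ± 2.75 CPM over shCUEDC1 (SD, n = 3 each), a log2 difference of 0.19 (edgeR adjusted p = 0.220). Its copy S100A7A went the other way, from 11.7, 12.7 and 11.1 CPM in shNC to 9.48, 9.71 and 10.05 CPM in shCUEDC1. The groups of S100A7A did not overlap, its log2 difference was -0.28 (edgeR adjusted p = 0.105), and it was called without shNC 3 (adjusted p = 0.0185). The coding sequences of these genes are 96.0% identical over 303 bases, with 12 differing bases and a longest identical stretch of 79 bases. How reads within such stretches were divided is uncertain.

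S100A6, calcyclin, was at 374, 375 and 269 CPM in shNC 1, 2 and 3 and at 376, 401 and 431 CPM in shCUEDC1. The groups did not overlap, but shCUEDC1 1 lay only just above shNC 2, and shNC 3 was far below both. The log2 difference was 0.25 with all libraries (edgeR adjusted p = 0.272) and 0.11 without shNC 3 (edgeR adjusted p = 0.0837). S100A4, metastasin, which binds non-muscle myosin, was at 31.3, 31.8 and 21.6 CPM in shNC 1, 2 and 3 against 29.4 to 32.1 CPM in shCUEDC1. Only shNC 3 was low, and the log2 difference turned from 0.12 to -0.04 without it. S100A11, which binds ANXA1, was at 528, 539 and 477 CPM in shNC 1, 2 and 3 and at 535, 553 and 598 CPM in shCUEDC1 1, 2 and 3. The groups overlapped, with shNC 3 the lowest. Its log2 difference was 0.13 (edgeR adjusted p = 0.229) and 0.08 without shNC 3 (0.175). S100A10, the partner of ANXA2, was at 323 ± 28.8 and 346 ± 26.6 CPM (SD, n = 3 each), a difference of 0.10 (edgeR adjusted p = 0.457).

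S100A14 and S100A16 are neighbours in the cluster, and S100A14, an atypical S100 protein of epithelia, was the S100 gene with the lowest log2 difference. It was at 8.40, 6.25 and 4.93 CPM in shNC and 3.36, 4.91 and 4.25 CPM in shCUEDC1. The groups did not overlap, with shNC 3 at the level of shCUEDC1 2. S100A14 differed by -0.65 with all libraries (SE 0.216, edgeR adjusted p = 0.0927) and fell by 0.81 without shNC 3 (edgeR adjusted p = 3.01e-04). S100A16 was at 192, 192 and 160 CPM in shNC 1, 2 and 3 and at 159, 158 and 168 CPM in shCUEDC1, so that shNC 3 lay among the shCUEDC1 libraries. Its log2 difference was -0.16 (edgeR adjusted p = 0.191), and it fell by 0.24 without shNC 3 (edgeR adjusted p = 3.07e-05). S100A13 and S100A1 share 235 exon bases on opposite strands and were at 37.6 ± 6.24 and 7.78 ± 2.98 CPM in shNC against 38.9 ± 2.83 and 8.22 ± 0.139 CPM over shCUEDC1 (SD, n = 3 each). Neither was called, and both changed sign without shNC 3.

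Among the annexins, ANXA6 rose. This long annexin with a doubled core binds late endosomes and the plasma membrane. It was at 322, 327 and 273 CPM in shNC 1, 2 and 3 and at 366, 363 and 360 CPM in shCUEDC1, and the groups did not overlap. The log2 change was 0.24 (SE 0.0663, 95% interval 0.09 to 0.39), with an edgeR adjusted p of 0.0498, at the edge of the threshold. It was 0.16 without shNC 3 (edgeR adjusted p = 0.00110). The call was lost without shNC 1 (adjusted p = 0.0783), without shCUEDC1 1, 2 or 3 (0.166, 0.161 and 0.146) and by limma-trend on FPKM (0.0840). ANXA9, an annexin that lacks the usual calcium sites, was at 75.5, 76.3 and 82.1 CPM in shNC and at 84.3, 90.4 and 96.2 CPM in shCUEDC1. The groups did not overlap, and shNC 3 was the highest of shNC. ANXA9 differed by 0.21 (edgeR adjusted p = 0.0644) and rose by 0.25 without shNC 3 (edgeR adjusted p = 3.43e-04).

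ANXA8L1 and ANXA8 are near-identical genes on chromosome 10 (46375627 to 46391784 and 47460162 to 47484158, GRCh38), and their reads cannot be assigned with certainty. Their coding sequences, of 1095 bases each, differ at 5 positions, and the longest stretch without a difference is 408 bases. Bases 613 to 672 hold a pair of those differences, A642G and G644C, counted from the A of the start codon with the base of ANXA8 first. They are shown from the GENCODE v29 transcripts with the differing bases in capitals, since only a read that covers one of the 5 differing bases tells the coding sequences apart.
ANXA8: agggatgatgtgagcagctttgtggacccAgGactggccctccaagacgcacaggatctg
ANXA8L1: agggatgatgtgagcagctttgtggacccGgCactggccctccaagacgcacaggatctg
ANXA8L1 had 2.07, 1.01 and 1.05 CPM in shNC and 0.459, 0.613 and 0.414 CPM in shCUEDC1, and it fell by 1.46 (SE 0.385, edgeR adjusted p = 0.0407). ANXA8 differed by -0.74 (edgeR adjusted p = 0.214). The share of the pair's reads given to ANXA8L1 varied from 25.8% to 55.4% between libraries. Summed, the pair had 74, 65 and 38 reads in shNC 1, 2 and 3 and 25, 30 and 31 reads in shCUEDC1, so the groups did not overlap however the reads were divided. The sum fell by 1.03 (SE 0.265, edgeR adjusted p = 0.0372), in a fit added after the values were seen. The call of ANXA8L1 itself was lost without shNC 1 (adjusted p = 0.148), without shCUEDC1 1, 2 or 3 (0.154, 0.107 and 0.162), by DESeq2 (0.0577), by limma-trend on FPKM (0.0690) and with the replicate number as a block (0.0567).

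ANXA1, an inhibitor of phospholipase A2 and a ligand of formyl peptide receptors, showed the widest spread within a group relative to its mean, among the tested members. It was at 50.7, 48.1 and 16.7 CPM in shNC 1, 2 and 3 and at 38.0, 35.5 and 39.4 CPM in shCUEDC1, so that the shCUEDC1 libraries lay between shNC 3 and the other shNC libraries. With all libraries the log2 difference was -0.04 with a 95% interval of -1.07 to 1.00. Without shNC 3, ANXA1 fell by 0.39 (95% interval -0.51 to -0.27, edgeR adjusted p = 8.13e-06). The S100A11 to ANXA1 ratio of FPKM was 75.2 in shNC 3 and 27.4 to 41.1 in the other 5 libraries.

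The 300 bases around the start site (250 before and 50 after) are shown for S100P and ANXA6, which lay higher in every shCUEDC1 library, and for ANXA1, where shNC 3 stood apart. They are RefSeq windows on GRCh38.p14, S100P at chr4:6693628-6693927 on the plus strand, ANXA6 at chr5:151157730-151158029 on the minus strand (the first of 2 annotated windows) and ANXA1 at chr9:73151615-73151914 on the plus strand. Capitals mark matches on either strand. The motifs searched were the TATA box, spelled TATAAA, the CCAAT box, the GC box, spelled GGGCGG, the AP-1 site, spelled TGANTCA, and the oestrogen response element, spelled GGTCANNNTGACC.
S100P: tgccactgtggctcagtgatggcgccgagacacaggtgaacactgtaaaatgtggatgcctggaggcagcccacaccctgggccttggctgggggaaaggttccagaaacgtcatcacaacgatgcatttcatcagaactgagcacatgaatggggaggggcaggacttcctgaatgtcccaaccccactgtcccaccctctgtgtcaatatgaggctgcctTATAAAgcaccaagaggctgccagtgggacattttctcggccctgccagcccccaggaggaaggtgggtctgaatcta
ANXA6: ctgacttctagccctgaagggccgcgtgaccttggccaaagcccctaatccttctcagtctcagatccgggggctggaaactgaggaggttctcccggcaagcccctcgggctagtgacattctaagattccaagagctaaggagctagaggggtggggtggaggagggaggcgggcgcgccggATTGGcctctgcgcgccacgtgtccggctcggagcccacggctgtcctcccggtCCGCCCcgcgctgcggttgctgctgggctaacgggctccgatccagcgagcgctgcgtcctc
ANXA1: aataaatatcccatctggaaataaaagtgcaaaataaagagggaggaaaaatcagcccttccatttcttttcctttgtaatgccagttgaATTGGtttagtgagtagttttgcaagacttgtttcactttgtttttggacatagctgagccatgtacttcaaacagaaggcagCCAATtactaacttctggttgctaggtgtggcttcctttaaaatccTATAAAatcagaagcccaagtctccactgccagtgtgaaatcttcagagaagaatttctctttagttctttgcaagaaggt
S100P has a TATA box at -28 and ANXA1 has one at -31 from the start site, with CCAAT matches at -160 and -77 in ANXA1. ANXA6 has a CCAAT match at -66 and a GC box at -12, and no TATA box. Windows were used for 30 of the 32 genes, 43 in all. TATAAA was in 14 of these 43 windows, from 13 genes, against 11.5% of all 35116 windows. The genes with a TATA match were S100A4, S100A7, S100A7A, S100A8, S100A9, S100A12, S100A13, S100P, S100Z, ANXA1, ANXA2, ANXA10 and ANXA11. Of these, ANXA10 had at most 1 read and S100Z at most 5 reads in any library. GGGCGG was in 17 of 43 (45.0% of all windows), CCAAT in 11 (34.6%), TGANTCA in 6 (7.71%) and GGTCANNNTGACC in 0 (0.0570%). A match is a run of letters, not a measured site.

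The remaining annexins differed by little. ANXA2, with a log2 difference of -0.03 (95% interval -0.20 to 0.14), was at 924, 906 and 748 CPM in shNC and 830, 817 and 871 CPM in shCUEDC1. Without shNC 3 it fell by 0.12 (edgeR adjusted p = 0.0168). ANXA5, whose protein is used to stain dying cells, was at 219, 215 and 197 CPM in shNC and 216, 212 and 222 CPM in shCUEDC1. ANXA7, synexin, was at 299, 295 and 306 CPM in shNC and 305, 308 and 311 CPM in shCUEDC1, with an interval of -0.05 to 0.13. ANXA11, ANXA4 and ANXA3 had log2 differences of 0.02, -0.05 and 0.13, with edgeR adjusted p between 0.640 and 0.908. The ratio of S100A10 to ANXA2 FPKM was 0.805, 0.791 and 0.849 in shNC and 0.841, 0.914 and 0.929 in shCUEDC1, with overlapping groups.

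**Figure D4:**
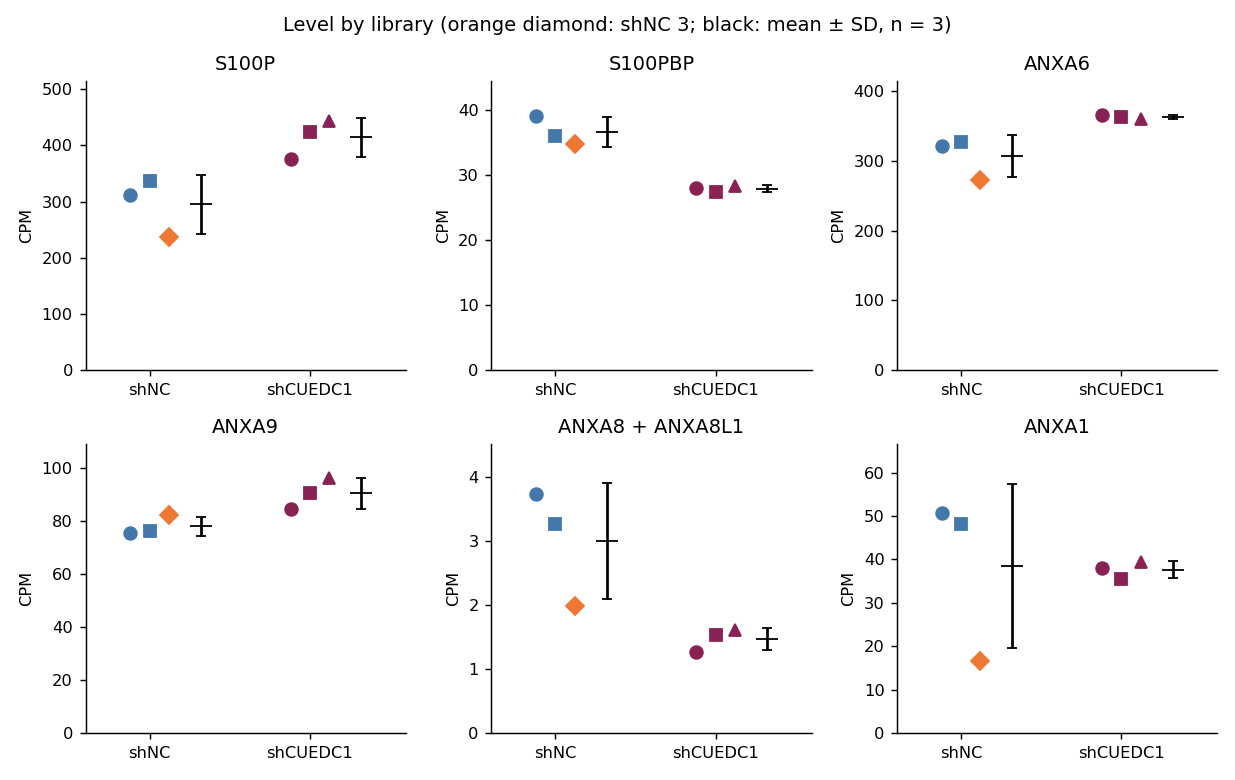
CPM (vertical, from 0) in each library of shNC and shCUEDC1 for S100P, S100PBP, ANXA6, ANXA9, the summed reads of ANXA8 and ANXA8L1, and ANXA1; black bars are the mean and SD of 3 libraries. The groups do not overlap in the first 5 panels, while for ANXA1 shNC 3 (16.7 CPM) lies under shCUEDC1 and shNC 1 and 2 (50.7 and 48.1 CPM) above it.

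Where shNC 3 differed from shNC 1 and 2, it was nearly always lower for these families. It lay below their mean in 24 of the 27 tested genes, against 50.3% of all genes tested, and was the lowest of all 6 libraries in 14 of 27, against 26.9% of all genes. It was the highest of the 6 in 0 of 27, against 26.9%. The 3 exceptions were ANXA9, ANXA7 and S100A7, at 108%, 103% and 102% of the mean of shNC 1 and 2. The median log2 difference of shNC 3 from that mean was -0.29 over the 27 genes and -0.002 over all genes, and the median size of the difference between shNC 1 and shNC 2 was 0.05 over the 27. ANXA1 was lowest, at 33.7% of shNC 1 and 2, followed by ANXA8 (48.0%), S100A1 (53.5%), S100A2 (55.4%) and ANXA3 (63.6%). Among abundant genes S100A4 was at 68.4%, S100A6 at 71.8%, S100P at 72.8%, S100A8 at 79.7% and ANXA2 at 81.7%. This compares 1 library with 2, so it carries no test.

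**Figure D5:**
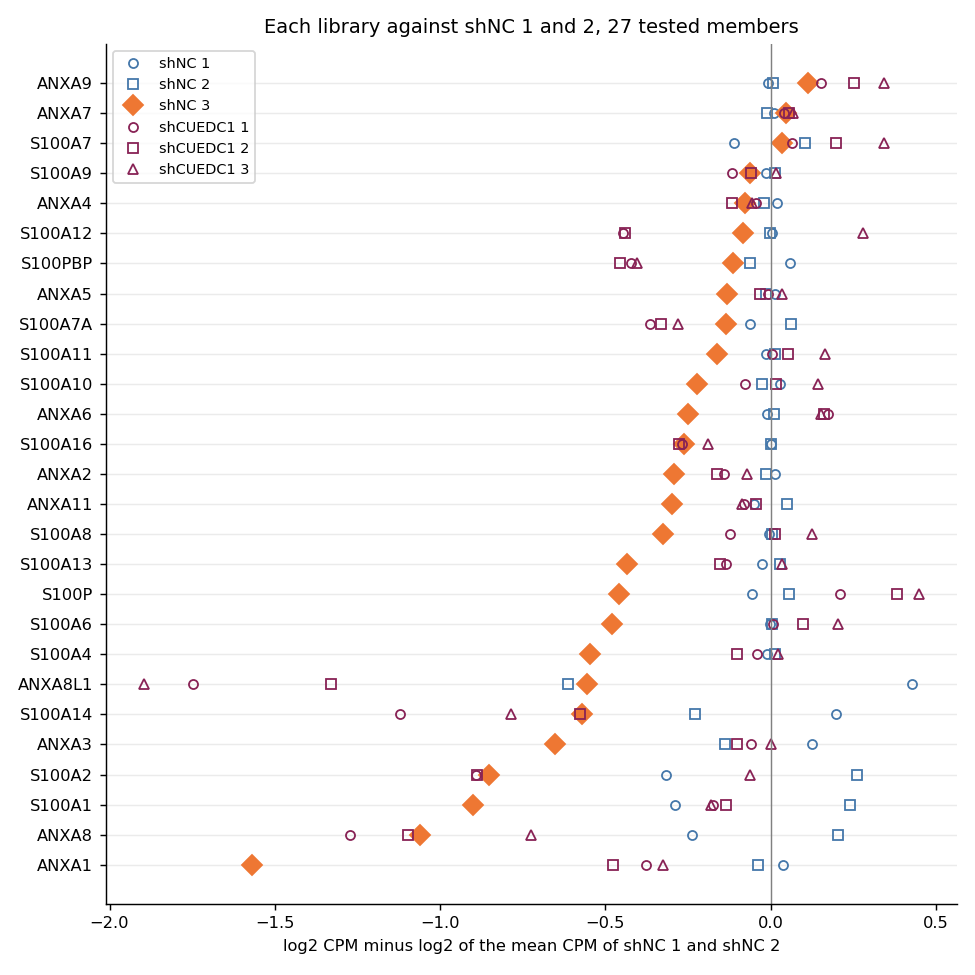
Log2 CPM of each library minus the log2 of the mean of shNC 1 and 2 (horizontal) for the 27 tested genes, ordered by shNC 3 (orange diamonds); blue is shNC 1 and 2, purple shCUEDC1. The orange diamonds lie left of 0 for 24 genes, down to 33.7% of shNC 1 and 2 for ANXA1.

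That difference was also set beside transcript length. The deposited FPKM imply a length under 1000 bases for 12 of the 15 S100 family genes tested. Over 851 other genes under 1000 bases the median of shNC 3 against shNC 1 and 2 was -0.12, and 71.2% lay below 0, while over 12946 longer genes it was 0.01. The 15 S100 family genes had a median of -0.33. The annexins, all above 1000 bases, had a median of -0.29. The part of length in the shNC 3 values was not tested.

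Without shNC 3, 11 of the 27 genes were called, 3 higher and 8 lower in shCUEDC1, against 28.1% of all 13982 genes tested (14.3% higher and 13.8% lower). The 3 that rose were S100P, ANXA6 and ANXA9. The 8 that fell were S100A14, S100A16, S100A7A, S100PBP, ANXA1, ANXA2, ANXA8 and ANXA8L1. Without shNC 3, S100A8, S100A10 and ANXA5 differed by 0.01, 0.03 and 0.001 on the log2 scale, with 95% intervals of -0.12 to 0.15, -0.08 to 0.14 and -0.08 to 0.08.

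Partners and receptors of these proteins, listed from textbook knowledge, were examined beside them. Of 31 binding partners tested, 0 rose and 2 fell by edgeR, against 5.19% and 4.77% of all genes, with a median log2 difference of -0.06. An unadjusted p below 0.05 was found for 10 of them, against 25.2% of all genes. Without shNC 3, 4 rose and 9 fell, against 14.3% and 13.8% of all genes. The channel ASIC1, a target of S100A10, was at 23.8, 24.8 and 20.3 CPM in shNC 1, 2 and 3 and at 17.9, 18.2 and 16.5 CPM in shCUEDC1 1, 2 and 3. All shCUEDC1 libraries lay below shNC. ASIC1 fell by 0.39 (edgeR adjusted p = 0.0296). The ASIC1 call was lost in every fit without 1 library except that without shNC 3 (highest adjusted p = 0.136). AHNAK, the large scaffold that binds S100A10 and ANXA2, was at 845 ± 38.1 and 872 ± 39.5 CPM (SD, n = 3 each, edgeR adjusted p = 0.652).

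Of 8 receptors tested, 1 rose and 2 fell by edgeR, against 5.19% and 4.77% of all genes, with a median log2 difference of -0.13. DESeq2 called 5 of the 8, against 10.6% of all genes, adding BSG and NPTN, which were lower (adjusted p = 0.0311 and 0.0190). Without shNC 3, edgeR called 2 higher and 4 lower, against 14.3% and 13.8% of all genes. CD36, a scavenger receptor reported to bind S100A8 with S100A9, was at 234, 220 and 143 CPM in shNC 1, 2 and 3 and at 67.6, 65.9 and 64.0 CPM in shCUEDC1. All shCUEDC1 libraries lay far below shNC, of which shNC 3 was the lowest. CD36 fell by 1.595 on the log2 scale (SE 0.179, edgeR adjusted p = 0.00299). MCAM, an adhesion molecule reported to bind the same ligands, fell from 25.5, 26.9 and 18.2 CPM to 11.01, 13.04 and 12.8 CPM, a log2 change of -0.94 (edgeR adjusted p = 0.00421). ALCAM, another adhesion molecule of the immunoglobulin family, rose from 386, 410 and 454 CPM to 638, 692 and 710 CPM, a log2 change of 0.71 (edgeR adjusted p = 3.39e-04). These 3 calls held in every alternative run. AGER, which encodes RAGE, was at 1.26 ± 0.367 and 1.51 ± 0.141 CPM (SD, n = 3 each, edgeR adjusted p = 0.624), and TLR4 had at most 1 read in any library. Copines are another family of calcium-dependent membrane proteins, and 8 were tested. With all 6 libraries none was called by edgeR or DESeq2, against 9.96% and 10.6% of all genes. An unadjusted p below 0.05 was found for 0 of the 8, against 25.2% of all genes. Without shNC 3, 1 of the 8 was called, against 28.1% of all genes: CPNE1, which fell by 0.17 (edgeR adjusted p = 0.00442).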

How the data were processed

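The authors deposited 1 table with, per the file headers, read counts, FPKM, TPM and a normalised signal for each library. The deposited estimated counts are fractional and not normalised, the deposited FPKM adjust for length and depth, and the deposited TPM sum to the same total in each library. The deposited signal, counts divided by 1 size factor a library, and the authors' means were not used. The build was GRCh38.p13, per the submitters' processing notes. Which aligner, counter and strand setting were used is not given in the sources used here. Counts were rounded, filtered with filterByExpr (minimum count 10), scaled by TMM and compared with edgeR 4.0.16 (robust quasi-likelihood F test, R 4.3.3), with Benjamini-Hochberg adjustment over all genes tested, called below 0.05. The script was tested on simulated data. Log2 differences are positive where shCUEDC1 was higher. Alternatives were RLE, other filters, DESeq2 1.42.0, limma-trend (limma 3.58.1) on log2(FPKM + 0.5), a replicate block and each library left out. Members and lists were chosen with earlier results of these data known. By rule, values per library are given for members called, the 5 most abundant of each family, called partners and CUEDC1. The values of 1 called partner are not reported here. Those of other members, AHNAK, AGER and TLR4 were chosen after their values were seen. Positions are from GENCODE v29 (GRCh38), promoters from RefSeq (GRCh38.p14).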

Additional observations from a re-analysis of the deposited data

How the results depend on the processing

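The count of S100 symbols called (1, S100PBP) was 2 with DESeq2 and 2 with a filter of 1 CPM in 3 libraries, both adding S100P, and ranged from 0 to 5 over the fits without 1 library, being 0 without shCUEDC1 2 and 5 without shNC 3. The count of annexins called (2) was 1 with DESeq2, 1 with the replicate block and 0 by limma-trend on FPKM, and ranged from 0 to 6 over the fits without 1 library. It was 6 without shNC 3, 2 without shNC 2 and 0 without any other library. Partners, receptors and copines called, pooled (5), ranged from 3 to 20 and all genes called (1377) from 468 to 3925 over the same fits, the highest being without shNC 3 in both.

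Over all members and alternative settings, 284 comparisons kept direction and side of the threshold, and 13 lost a call. A call was gained in 11, and 13 changed sign, none of them for a gene called with all libraries. The 284 include the later fit of ANXA8 and ANXA8L1 summed, set against ANXA8L1, which is not among the alternatives listed above. ANXA1 was at 0.070 with the replicate block and 0.10 by limma-trend on FPKM. Over fits without 1 library ANXA1 ranged from -0.39 to 0.21, with 0.16 and 0.0077 without shNC 2 and shCUEDC1 2, ANXA11 from -0.068 to 0.098, ANXA2 from -0.12 to 0.022 (0.0063 without shNC 2), ANXA3 from -0.050 to 0.32, S100A1 from -0.16 to 0.40, S100A13 from -0.079 to 0.13 (-0.012 without shCUEDC1 3) and S100A4 from -0.036 to 0.21. The negative ends were without shNC 3, for ANXA1, ANXA2 and the 5 others alike. The cause was not tested.

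Same-numbered libraries did not deviate together (correlations of -0.01, -0.05 and -0.02), and 0 of 6 libraries correlated best with their own number. These correlations cannot decide whether the numbers pair the libraries, since an outlying shNC library can dominate the deviations within its group. With the replicate block 1117 genes were called, with 1 S100 symbol, 1 annexin and 5 partners, receptors and copines pooled, and CUEDC1 was at -1.68. Genes with few reads, such as S100A2, S100A12 and the ANXA8 pair, are limited by depth.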

Other observations

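Between S100A11 and S100A9 the cluster on chromosome 1 holds genes of the cornified envelope, the cross-linked protein shell of surface keratinocytes. GENCODE v29 places 48 other protein-coding genes between S100A10 and S100A1, of which 34 are in the table and 12 were tested, all at a low level (at most 10.0 FPKM). Of the 12, 0 rose and 7 fell, against 5.19% and 4.77% of all genes tested (edgeR). The 7 were SPRR1A, SPRR1B, SPRR2A, SPRR2D, SPRR2E, which encode small proline-rich envelope proteins, the peptidoglycan-binding PGLYRP3, and TCHHL1, an S100-fused protein related to trichohyalin. None of the 14 S100 genes tested in the same cluster was called with all 6 libraries, against 9.96% of all genes, a count near that share. Without shNC 3, S100A7A, S100A14 and S100A16 fell, where 13.8% of all genes did. SPRR1A went from 8.11 to 4.05 CPM, a log2 change of -0.999 (edgeR adjusted p = 0.00168). TCHHL1 went from 5.05 to 2.41 CPM, a log2 change of -1.06 (edgeR adjusted p = 0.0245). Of the 12 genes that are not S100 genes, 8 fell without shNC 3 (13.8% of all genes did), 5 without shNC 2 (3.3%) and 3 without shNC 1 (2.22%). The count was 3 without shCUEDC1 1 (1.58%), 3 without shCUEDC1 2 (1.4%) and 4 without shCUEDC1 3 (1.55%). It was 6 by DESeq2 (4.87%), 7 by limma-trend on FPKM (4.31%) and 5 with the replicate block (3.72%). Of the keratinocyte markers outside this region, TGM1 fell by 0.82 (edgeR adjusted p = 0.0405), while KRT10 differed by 0.30 (0.0513); their part in these values was not tested. The SPRR2 genes are near-identical copies whose reads may be shared, so they are not independent, and this region was chosen after its values were seen.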
